A study of Mus musculus with 4 samples.

Results

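Mouse brain RNA taken 24 h after permanent middle cerebral artery occlusion (PMCAO) and saline injection was set against sham RNA of the same time on 2 two-colour oligonucleotide arrays. These are the 2 arrays labelled 24 h among the 4 of the series, and the other 2 hold the same comparison at 6 h with sham RNA of their own. The mice were male C57BL/6J, 8 to 12 weeks old, in groups of 3, with no genetic change named. In PMCAO a rounded nylon filament was pushed through the carotid artery until it closed the middle cerebral artery, and it was not withdrawn. Sham mice had the neck vessels exposed and the wound sutured. Both arms were anaesthetised and received saline into the cerebral ventricle, so anaesthesia, neck surgery and injection are shared by every sample. On sample 1 the PMCAO RNA carried Cy5 and the sham RNA Cy3, and on sample 2 the dyes were exchanged. Nothing in the labels tells how RNA from 3 mice was combined, or whether samples 1 and 2 are separate RNA, so the p-values measure only the spread between arrays, which may be technical. According to the design text the arrays carry the contralateral hemisphere, that is the side away from the filament, while the samples are labelled only as brain.

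When a cerebral artery is closed, neurons in its territory lose oxygen and glucose, and dying cells release molecules that stimulate Toll-like receptors on microglia and endothelium. NF-kB and STAT3 signalling then raises chemokines, adhesion molecules and acute phase proteins, neutrophils and monocytes enter from the blood, and astrocytes take on a reactive state. The striatum and lateral cortex are the main regions fed by this artery.

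The tissue expressed the genes of brain. All 20 listed pan-neuronal genes, all 28 myelin genes and all 24 astrocyte genes could be tested. The condition was a probe well above background on both arrays in at least 1 RNA group of the 4 (PMCAO and sham at each time), and 19127 of 27670 gene names met it. In the PMCAO channel 73.7% of spots on sample 1 and 66.3% on sample 2 were well above background, against 70.6% and 73.6% for sham RNA. The log2 ratios of PMCAO over sham on sample 1 and sample 2 correlated at 0.671 across genes, which do not count as replicates of each other, and 61.6% of genes lay on the same side of 0 on both. A gene could enter through 1 RNA alone, and 67 genes entered with sham not well above background on either 24 h array and PMCAO above it on both. The opposite, PMCAO not well above background and sham above it on both arrays, held for 124 genes. The 60 gene lists described below hold 1370 distinct tested genes. The number of arrays limits the precision of every value below.

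At 24 h 1499 genes were higher in PMCAO (7.84% of those tested) and 864 were lower (4.52%), by limma's moderated test with Benjamini-Hochberg adjustment at 0.05. All 2363 had the same sign on both arrays. A gene with opposite signs could not pass this test, so the shared sign is no separate check. Of the 2363 genes, 390 were at least 2-fold higher (2.04% of those tested) and 25 at least 2-fold lower (0.131%). Ratios below are log2 PMCAO over sham with the model's standard error, n = 2 arrays, and levels are normalised log2 channel intensities, which compare RNAs for 1 gene and not genes with each other. The balance between rises and falls depended on the scaling. The scanner software's processed signals gave 1243 higher and 1163 lower, of which 616 and 284 at least 2-fold. The series values deposited by the authors gave 1235 and 1156, of which 618 and 288 at least 2-fold, and centring on the median in place of the intensity-dependent (loess) correction called 13 higher and 0 lower, with 283 and 18 at an unadjusted p under 0.05. No gene among the 2363 changed sign under these 3 scalings.

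**Figure D1:**
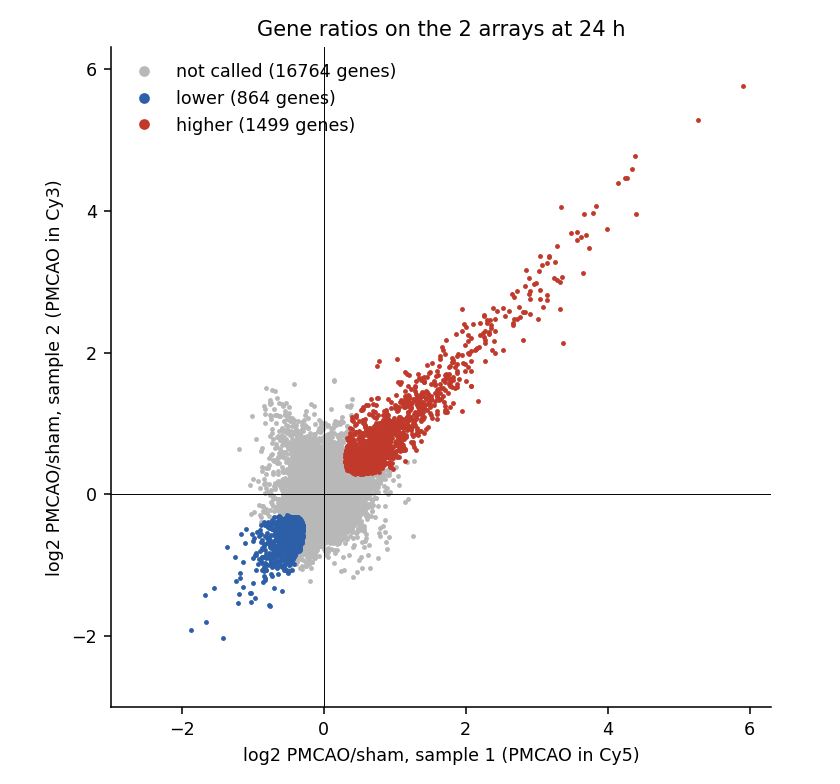
Log2 PMCAO over sham of each tested gene on sample 1 (horizontal axis) and sample 2 (vertical axis) at 24 h, 1 point per gene, coloured by the moderated test. The 1499 higher genes stretch along the diagonal to log2 ratios above 5, while the 864 lower genes stay above -3 on both axes.

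Several of the strongest rises lay outside the inflammatory genes that are best known in stroke. Ctla2a, which encodes an inhibitor of cysteine proteases, had levels of 11.18 and 10.92 in sham on samples 1 and 2 and of 14.85 and 14.88 in PMCAO, a log2 ratio of 3.81 ± 0.12 (14.1-fold, adjusted p = 0.000202). Its close relative Ctla2b, whose probe may share signal with it, gave 3.63 ± 0.10. The transglutaminase gene Tgm1 went from 6.94 and 6.59 in sham to 10.11 and 9.95 in PMCAO (9.65-fold). Slpi, an inhibitor of neutrophil elastase, rose by 3.39 ± 0.12. Adam8, a membrane metalloprotease of leukocytes and glia, stood at 9.67 and 9.69 in sham and at 12.82 and 12.95 in PMCAO, a ratio of 3.20 ± 0.09. Cd300lf, an immunoglobulin-like receptor of myeloid cells, rose by 3.15 ± 0.13, while its second probe above background gave 0.55. Tmem252, a small membrane protein, rose by 3.15 ± 0.10. For each of these genes both PMCAO levels lay above both sham levels. Il6 and the transporter gene Slc10a6 were not well above background in sham on either array. Il6 measured 6.57 and 6.00 in sham and 9.60 and 9.15 in PMCAO and was at least 8.38-fold higher, where the bound sets the PMCAO mean against the dimmest signal called detected on the array, or the sham signal if that was brighter. Slc10a6 was at least 7.85-fold higher by the same measure. The Il6 probe lies at chr5:29052734-29052793 and the Ctla2a probe at chr13:60042051-60042110 (mm7).

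The coagulation and plasminogen system, which forms and dissolves clots on the vessel wall, moved upward. Of 22 genes tested 14 rose and none fell, with a median log2 ratio of 0.69 beside 0.00 over all genes. Procr, the endothelial receptor for the anticoagulant protein C, went from 8.68 and 8.80 in sham to 11.51 and 11.37 in PMCAO, a ratio of 2.70 ± 0.10 (6.49-fold, adjusted p = 0.000202). Thrombomodulin (Thbd), which turns thrombin towards activating protein C, rose by 1.53 ± 0.09. The plasminogen activator Plat increased by 1.33 ± 0.09 and the urokinase receptor Plaur by 2.59 ± 0.11, from 8.63 and 8.83 in sham to 11.36 and 11.30 in PMCAO. Anxa2, a docking site for Plat and plasminogen on the cell surface, rose by 1.87 ± 0.12. The urokinase gene Plau itself, at 0.17 ± 0.09, did not pass the test (adjusted p = 0.305).

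Angiogenic genes rose in number, while transporters of the vessel wall moved both ways. Among 24 angiogenic factors and sprouting markers 12 rose and none fell (median 0.43). Angpt2, an antagonist of Tie2 that loosens vessel walls, went from 8.70 and 8.79 to 11.37 and 11.26, a ratio of 2.57 ± 0.10 (5.95-fold). The tip cell marker Esm1 rose by 2.21 ± 0.11, the vasodilator peptide gene Adm by 2.49 ± 0.16, and Ccn1, a matrix signal for sprouting, by 2.35 ± 0.10. Vegfa, the main hypoxia-driven angiogenic factor, was at 0.34 ± 0.16 and did not pass (adjusted p = 0.228). Blood-brain barrier transporters counted 6 of 22 lower and 3 higher. Slc38a5, a glutamine transporter of brain endothelium, had levels of 11.08 and 11.15 in sham and 9.21 and 9.23 in PMCAO and was 3.72-fold lower. Slco1c1 and Slco1a4, which carry thyroid hormone and organic anions, had ratios of -0.93 ± 0.09 and -0.62 ± 0.10, and the iron exporter Slc40a1 one of -0.60 ± 0.14. The members that rose were the lactate transporter Slc16a1 at 0.58 ± 0.11, the lipid transporter Mfsd2a at 0.51 ± 0.09 and the transferrin receptor Tfrc at 0.38 ± 0.09. The barrier's glucose transporter Slc2a1 had a ratio of 0.87 with array values of 1.26 and 0.47, and it missed the threshold (adjusted p = 0.0547). RNA of tissue cannot tell fewer cells of a type from less RNA per cell, here or below.

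Endothelial identity genes showed more rises than falls. Of 25 tested, 8 rose and 1 fell. The junction cadherin Cdh5 rose by 1.45 ± 0.14, Esam by 0.94 ± 0.13 and Pecam1 by 0.93 ± 0.09, while the arterial transcription factor Sox17 fell by 0.56. Further lower genes of vessel cells included the chemokine Cxcl12 at -1.21 ± 0.13 and the brain artery marker Gkn3 at -1.18 ± 0.10, whose levels were 8.94 and 9.04 in sham and 7.76 and 7.86 in PMCAO. Of 16 pericyte and smooth muscle genes, the channel subunits Kcnj8 (0.96 ± 0.09) and Abcc9 (0.56 ± 0.09) rose and the myosin light chain Myl9 fell (-0.67 ± 0.08). Among 17 adhesion molecules for leukocytes 6 rose and 2 fell. Icam1, the endothelial ligand of leukocyte integrins, went from 8.86 and 8.82 to 11.13 and 10.96, a ratio of 2.20 ± 0.09. P-selectin (Selp) rose by 0.99 ± 0.09. Vcam1, another endothelial ligand, was at -0.21 ± 0.08 and did not pass (adjusted p = 0.163). Its other probe above background gave 0.55, so the direction for Vcam1 is not settled.

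Genes of the extracellular matrix rose in large number. Among 41 collagens and matrix glycoproteins 23 rose and none fell (median 0.46). The basement membrane collagen Col4a1 rose by 1.59 ± 0.09, Col5a3 by 1.48 ± 0.09, the cross-linking enzyme Lox by 1.41 ± 0.10 and the proteoglycan Dcn by 1.13 ± 0.08. Of 22 matrix proteases and their inhibitors 12 rose and 1 fell. The aggrecanases Adamts1 and Adamts9 increased by 2.44 ± 0.09 and 2.22 ± 0.10, and the inhibitor Timp1 by 3.62 ± 0.09, while Mmp17 fell by 0.46. Fibroblast genes of the meninges and vessel sheath counted 5 higher and 1 lower of 19. The summed linear intensity of that list was 106000 and 124000 in sham and 176000 and 162000 in PMCAO on samples 1 and 2. Choroid plexus and ependymal genes, which would mark a difference in dissection of the ventricles, counted 0 higher and 3 lower of 20 (2 and 3 at an unadjusted p under 0.05), with summed intensities of 50700 and 53400 in sham and 51800 and 47200 in PMCAO. Their part in the other results was not tested.

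Genes for sensing and relaying inflammation rose at successive steps. Of 16 Toll-like receptors and adaptors 10 rose and none fell (median 0.56). Tlr2, a receptor for lipoproteins, went from 8.22 and 8.14 in sham to 10.41 and 10.22 in PMCAO, a ratio of 2.13 ± 0.09 (4.38-fold). The shared adaptor Myd88 rose by 1.07 ± 0.08 and the inhibitory kinase Irak3 by 0.95 ± 0.11. In the NF-kB pathway 10 of 17 genes rose and none fell. Inhibitors and feedback genes were among them: Bcl3 rose by 2.31 ± 0.11, Nfkbia, the inhibitor that holds NF-kB in the cytoplasm, by 1.72 ± 0.10, Nfkbiz by 1.37 ± 0.09 and Tnfaip3, a deubiquitinase that ends the signal, by 1.07 ± 0.10. The subunit Rela moved less, at 0.66 ± 0.14 (adjusted p = 0.0357). Of 29 cytokine receptors and feedback genes 15 rose and none fell. Socs3, the inhibitor induced by STAT3, went from 11.26 and 11.32 to 13.53 and 13.63 (2.29 ± 0.09). The receptor subunits Osmr, Il4ra and Csf2rb rose by 2.11 ± 0.10, 1.85 ± 0.08 and 1.69 ± 0.09, and both tumour necrosis factor receptors rose, Tnfrsf1a by 1.69 ± 0.13 and Tnfrsf1b by 1.42 ± 0.09, where its other probe above background gave -0.04. The interleukin 6 signal transducer Il6st, at 0.28 ± 0.08, did not pass (adjusted p = 0.0839).

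Chemokines had a higher median ratio than cytokines or the chemokine receptors. Among 23 cytokines 12 rose and none fell (median 0.40). Il11, a cytokine of the interleukin 6 family, reached 3.58 ± 0.09. The antagonist Il1rn, with sham not well above background, was at least 4.07-fold higher, and the granulocyte factor Csf3 at least 3.87-fold. Chemokine receptors counted 7 of 13 higher, none lower and a median of 0.42, against 16 higher and 3 lower of 23 chemokines with a median of 1.86. These medians depend on the filter, through which a gene can enter by PMCAO alone: with dim genes kept in, they were 0.97 for chemokines, 0.15 for chemokine receptors and 0.33 for cytokines. Cxcr2, the neutrophil receptor for Cxcl1 to Cxcl3, was not well above background in sham and was at least 2.57-fold higher. Cxcr4, the receptor for Cxcl12, was at 0.15 ± 0.08 (adjusted p = 0.315). The chemokines that fell were Cxcl12, the neuronal membrane-bound Cx3cl1 at -0.87 ± 0.10 and Ccl27a at -0.45 ± 0.09.

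The sites at which NF-kB can bind are short, and stretches that hold the letters GGANTTTCC on either strand are shown for 7 genes that rose, from the first RefSeq promoter window of each gene in assembly GRCm38.p6, on the gene's strand. Capitals mark the match, and only bases upstream of the start are printed.
Cxcl1 (chr5:90891150-90891208): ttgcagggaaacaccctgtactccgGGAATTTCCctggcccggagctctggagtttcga
Cxcl2 (chr5:90903778-90903836): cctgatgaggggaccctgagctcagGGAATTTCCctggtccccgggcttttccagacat
Cxcl3 (chr5:90786004-90786062): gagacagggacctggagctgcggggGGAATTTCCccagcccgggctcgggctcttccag
Cxcl10 (chr5:92349014-92349072): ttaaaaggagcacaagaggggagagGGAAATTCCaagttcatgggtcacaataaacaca
Il6 (chr5:30013046-30013104): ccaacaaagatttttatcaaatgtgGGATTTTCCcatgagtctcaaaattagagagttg
Nfkbia (chr12:55492648-55492701): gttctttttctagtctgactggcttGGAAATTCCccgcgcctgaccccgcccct
Tnfaip3 (chr10:19015411-19015459): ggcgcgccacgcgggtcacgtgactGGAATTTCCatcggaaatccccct
These matches end 15 to 149 bases before the start of their gene. Of all 27025 RefSeq promoters 1.05% hold the match within 250 bases upstream. Their log2 ratios at 24 h were 4.26 for Cxcl1, 2.97 for Cxcl10, 1.72 for Nfkbia and 1.07 for Tnfaip3. Sham was not well above background for the other 3, which were at least 3.48-fold (Cxcl2), 6.07-fold (Cxcl3) and 8.38-fold (Il6) higher. The genes were chosen because they rose and hold the match, so the 2 properties are shown side by side as a description. A promoter was matched for 16 of 23 chemokine genes and 12 of 17 NF-kB pathway genes, too few for a share over those lists.

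Interferon response genes, which limit virus replication and are induced through a repeated GAAA element, had a lower median ratio than the chemokines. Of 33 tested 18 rose and none fell (median 0.53), and 26 had an unadjusted p under 0.05. Rsad2, an antiviral enzyme, measured 7.78 and 7.69 in sham and 9.18 and 9.08 in PMCAO, a ratio of 1.39 ± 0.08. The membrane proteins Ifitm3, Ifitm1 and Ifitm2 rose by 1.20 ± 0.09, 1.20 ± 0.12 and 1.03 ± 0.10, the GTPase gene Gbp2 by 1.13 ± 0.13 and the transcription factor Irf1 by 0.85 ± 0.08. Among members that did not pass were Irf7 at 0.48 and Oas1a at 0.32. The letters GAAANNGAA, on either strand, are shown in capitals for 5 of the higher genes.
Rsad2 (chr12:26456538-26456596): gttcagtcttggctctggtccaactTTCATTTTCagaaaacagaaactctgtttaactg
Isg15 (chr4:156200851-156200909): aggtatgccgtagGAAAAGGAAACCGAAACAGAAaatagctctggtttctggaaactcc
Ifit1 (chr19:34640780-34640838): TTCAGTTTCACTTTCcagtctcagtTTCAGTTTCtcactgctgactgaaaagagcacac
Gbp2 (chr3:142620580-142620638): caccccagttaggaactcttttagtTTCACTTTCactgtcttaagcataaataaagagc
Ifitm2 (chr7:140955974-140956032): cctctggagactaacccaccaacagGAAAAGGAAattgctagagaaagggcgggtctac
This match is held by 14 of the 27 list members with a RefSeq promoter (51.9%) within 250 bases upstream of the start, against 7.16% of all 27025 promoters. Among the 14 higher members with a promoter 8 hold it, so members that passed and members that did not both carry it. Isg15 rose by 0.80 ± 0.14 and Ifit1 by 0.57 ± 0.11.

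Class I genes of antigen presentation rose, and the class II genes named here did not pass the test. Of 19 genes 7 rose and none fell. The class I genes H2-D1, H2-K1 and H2-T23, whose related sequences may share probe signal, rose by 1.00 ± 0.15, 0.88 ± 0.08 and 0.77 ± 0.11, and the peptide transporter Tap1 by 0.56 ± 0.11. Cd86, a costimulatory ligand of myeloid cells, rose by 1.48 ± 0.11. The class II genes H2-Aa and H2-Eb1 were at 0.07 ± 0.13 and -0.01 ± 0.08 and did not pass. Of 21 complement and acute phase genes 12 rose and none fell (median 0.70). Saa3, a serum amyloid A protein, went from 6.87 and 6.56 in sham to 10.06 and 9.91 in PMCAO (9.61-fold), haptoglobin (Hp) rose by 2.80 ± 0.12, ceruloplasmin (Cp) by 1.29 ± 0.08 and the central complement component C3 by 1.11 ± 0.11.

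Markers of neutrophils and monocytes rose in number, whereas no lymphocyte marker passed the test. Neutrophil markers counted 17 higher and none lower of 21 (median 1.50), with summed intensities of 4830 and 4850 in sham and 72700 and 82800 in PMCAO. S100a9, whose protein neutrophils store in their cytosol, made up most of the PMCAO sum, with log2 levels of 9.80 and 10.26 in sham and 15.71 and 16.02 in PMCAO. Without it the other 20 genes summed to 3940 and 3630 in sham and 19100 and 16300 in PMCAO. Clec4d, a lectin of neutrophils and monocytes, rose by 3.58 ± 0.14, the decoy receptor Il1r2 by 2.58 ± 0.13, and the collagenase Mmp8, not well above background in sham, was at least 7.35-fold higher. The granule protein genes Mpo and Ltf were at 0.13 ± 0.08 and 0.17 ± 0.09 and did not pass. Monocyte and macrophage markers counted 14 higher and none lower of 18 (median 1.06). Arg1, an arginase of wound macrophages, rose by 2.13 ± 0.11, Thbs1, a matrix glycoprotein that platelets also store, by 2.38 ± 0.09, and the platelet chemokine Pf4 by 1.45 ± 0.16. Of 15 lymphocyte markers 7 were above background and tested, and none passed limma's test in either direction. Before adjustment 0 were higher and 1 lower at p under 0.05, and the summed intensities were 15500 and 17800 in sham and 18200 and 16400 in PMCAO. The 3 lymphocyte markers with the largest absolute ratios had log2 levels of at most 8.42, so brighter members made up most of these sums. No sum without the brighter members was computed, so the sums say little about the dimmer markers. Of 5 red cell markers Hba-a1 rose by 0.52 ± 0.08 and none fell, and the list summed to 127000 and 127000 in sham and 143000 and 140000 in PMCAO. The part of blood left in the vessels in these results was not tested.

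Microglia, the resident macrophages of the brain, showed lower identity genes beside higher activation genes. Of 19 homeostatic microglia genes 9 fell and 1 rose (median -0.30). P2ry12, the nucleotide receptor that steers microglial processes to injury, had levels of 9.93 and 10.37 in sham and 8.50 and 8.35 in PMCAO and was 3.3-fold lower, a ratio of -1.72 ± 0.17 (adjusted p = 0.00378). Siglech, a lectin of microglia, went from 8.30 and 8.52 to 7.35 and 7.45 (-1.01 ± 0.09). Gpr34 fell by 1.37, the fructose transporter Slc2a5 by 1.30 and P2ry13 by 0.70, with no overlap between PMCAO and sham levels for P2ry12, Siglech or Gpr34. Other genes of these cells did not pass. Cx3cr1 was at -0.15 ± 0.10 and Trem2 at -0.18 ± 0.10. The member that rose, Sparc (0.46 ± 0.09), encodes a matrix protein that endothelium also makes. Of 24 phagocyte activation genes 17 rose and none fell (median 0.88). Spp1 (osteopontin) increased by 2.98 ± 0.11, the galactose-binding lectin Lgals3 by 2.83 ± 0.10, the scavenger receptor Msr1 by 2.18 ± 0.12 and Capg, an actin-capping protein, by 1.86 ± 0.10. Apoe, a lipid carrier of glia, was at -0.15 ± 0.25 and did not pass. Markers of entering monocytes moved with these genes, as counted above, and their part was not tested.

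Among the listed astrocyte genes the rises lay mainly in markers of the reactive state. All 28 reactive astrocyte markers tested rose (median 1.81), from S1pr3 at 0.60 ± 0.08 to Cd14 at 3.88 ± 0.14, though several of them, such as Cd14 and Timp1, are also made by myeloid or vessel cells. Of 24 homeostatic astrocyte genes 4 rose and 1 fell (median -0.03). Both lists were written with earlier results of these data known, so their counts describe the members chosen. The glial transcription factor Sox9 rose by 0.56 ± 0.13 (adjusted p = 0.0482 by limma), and its lowest probe above background gave 0.12. The folate enzyme Aldh1l1 rose by 0.54 ± 0.09, and the serine transporter Slc7a10 fell by 0.52. The glutamate transporter Slc1a2 was at -0.41 ± 0.22 and the water channel Aqp4 at -0.22 ± 0.15, and neither passed. Hes5, a Notch target of astrocytes and progenitors that lies outside these lists, fell from 13.39 and 13.42 to 12.50 and 12.48 (-0.91 ± 0.08).

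**Figure D2:**
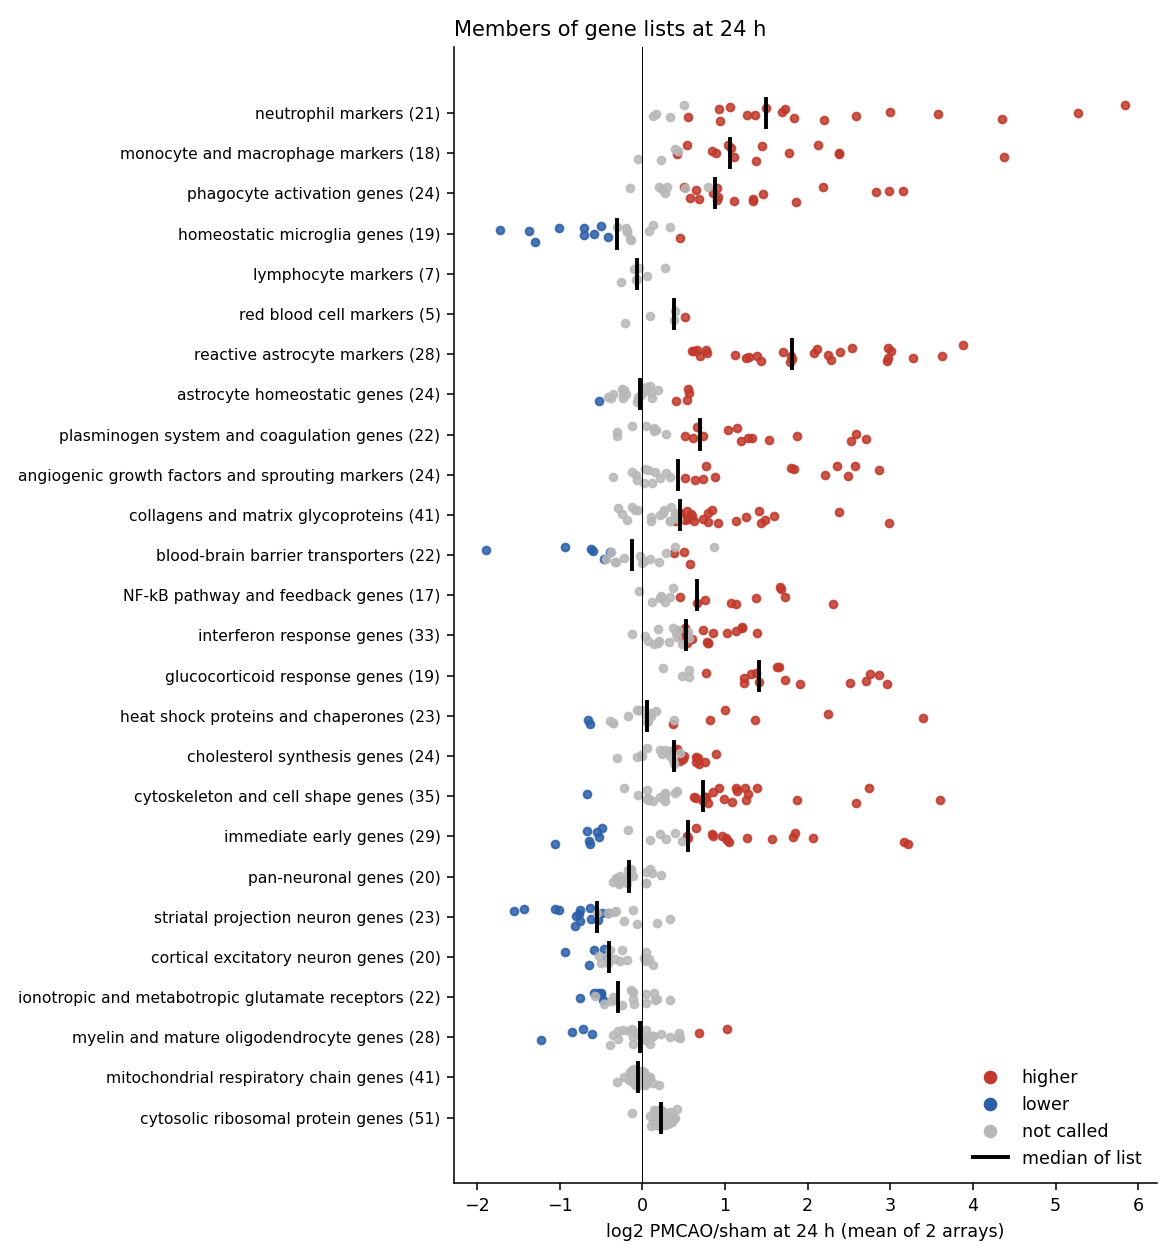
Log2 PMCAO over sham at 24 h (mean of 2 arrays, horizontal axis) of the tested members of 26 gene lists, 1 point per gene coloured by the moderated test, with the median of each list as a black bar and its number of genes in brackets. Neutrophil, reactive astrocyte and coagulation lists lie mainly to the right of 0, striatal neuron genes to the left at a median of -0.55, and mitochondrial and ribosomal genes hold no called member.

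Some genes that mark neurons of single regions fell, whereas no listed pan-neuronal gene passed the test. None of 20 pan-neuronal genes passed limma's test in either direction, where 0 higher and 3 lower had p under 0.05 without adjustment, and the median ratio was -0.16. Without sample 1 of 24 h 3 higher and 5 lower passed, and without sample 2 there were 8 lower, where the spread comes from the 6 h arrays alone. With all arrays and the sample number, which is dye orientation, fitted as a block, 8 pan-neuronal genes were lower. Of 23 genes of striatal projection neurons 14 fell and none rose (median -0.55). Rxrg, a retinoid receptor of striatum, had levels of 13.27 and 13.16 in sham and 11.59 and 11.74 in PMCAO and was 2.93-fold lower (-1.55 ± 0.11, adjusted p = 0.00108). Genes of both output pathways were among those lower. For the indirect pathway the adenosine receptor Adora2a was at -1.06 ± 0.16, the dopamine receptor Drd2 at -0.80 ± 0.15 and the enkephalin precursor Penk at -0.81 ± 0.15. Their other probes above background gave -0.1 for Adora2a, -0.48 for Drd2 and -0.4 for Penk. For the direct pathway the dopamine receptor Drd1 was at -0.62 ± 0.08 and the tachykinin precursor Tac1 at -0.41 ± 0.09. Ppp1r1b, the dopamine-regulated phosphatase inhibitor of both, had opposite signs on the arrays, -0.63 and 1.29, and did not pass (adjusted p = 0.69). Of the 3 probes of Tac1 only 1 was above background, and the mean ratio over all 3 was 0.01. Summed over the list, intensities were 241000 and 244000 in sham and 168000 and 151000 in PMCAO, with no overlap. Penk, itself lower, made up a large part of these sums, with log2 levels of 16.53 and 16.65 in sham. The sums were not computed without Penk, so they do not show how far the other genes fell together. Of 20 genes of cortical excitatory neurons 5 fell and none rose (median -0.40). Neurod6, a transcription factor of these cells, went from 11.36 and 11.46 to 10.54 and 10.39 (-0.94 ± 0.12), and the layer 4 gene Rorb was at -0.64 ± 0.13. Slc17a7, their vesicular glutamate transporter, was at 0.08 ± 0.30 and did not pass. Of 20 interneuron genes Calb1 (-0.69 ± 0.09), Vip (-0.56 ± 0.11) and Cort (-0.44 ± 0.09) fell and none rose, while Gad1 was at 0.09 and Sst at -0.06, neither past the test.

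**Figure D3:**
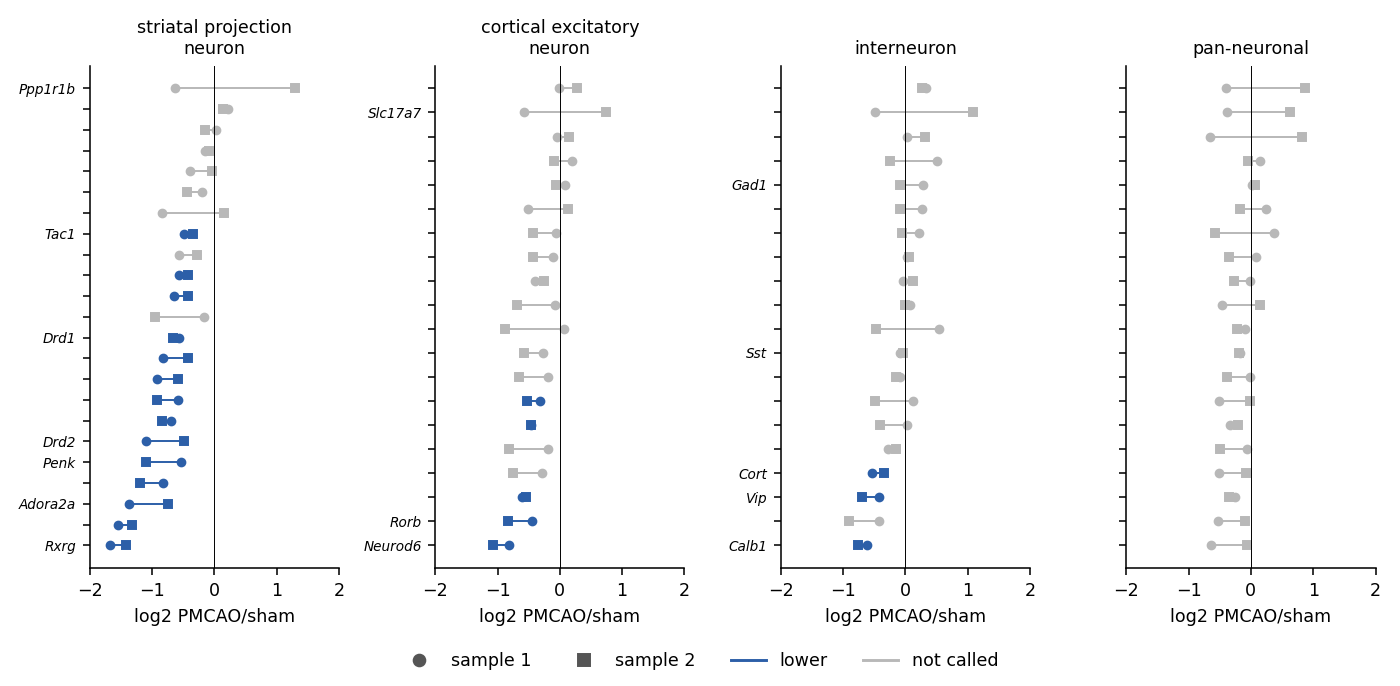
Log2 PMCAO over sham at 24 h of each tested gene in 4 lists of neuronal genes, with sample 1 as a circle and sample 2 as a square joined by a line (horizontal axis) and genes in rows by their mean, named where the text gives them. Blue marks genes that fell: 14 of 23 striatal, 5 of 20 cortical, 3 of 20 interneuron and none of 20 pan-neuronal genes.

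Some genes of neurotransmitter receptors and channels fell, and 1 gene of vesicle release. Of 22 glutamate receptor genes 6 fell and none rose (median -0.29). Gria3, a subunit of AMPA receptors, had levels of 11.65 and 11.59 in sham and 10.90 and 10.84 in PMCAO (-0.75 ± 0.09), though another probe of it reached 0.36, Gria2, the subunit that blocks calcium entry, was at -0.50 ± 0.08, and the NMDA receptor subunit Grin2a was at -0.59 ± 0.11. The obligate NMDA receptor subunit Grin1 was at 0.05 ± 0.16 and did not pass. Of 14 GABA receptor genes 3 fell and none rose (median -0.32). Gabra2 went from 10.25 and 10.46 to 9.41 and 9.31 (-1.0 ± 0.13), Gabra4 was at -0.59 ± 0.09 and the extrasynaptic subunit Gabrd at -0.59 ± 0.13. Among 52 voltage-gated channel genes 5 fell and none rose, led by the potassium channel Kcna4 at -0.72 ± 0.09. Of 31 synaptic vesicle and release genes the priming factor Unc13a fell (-0.58 ± 0.09, with another probe at 0.29) and none rose. The lower shares were 27.3% for glutamate receptors, 21.4% for GABA receptors, 9.62% for channels and 3.23% for vesicle release. Over all genes 4.52% were lower. The vesicle release count rests on 1 gene and is no result about that list. Whether the shares of these lists differ was not tested. Khdrbs3, a splicing regulator of neurexin transcripts outside the lists, measured 15.48 and 15.51 in sham and 14.51 and 14.05 in PMCAO (-1.21 ± 0.13).

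Immediate early genes, which neurons and injured cells switch on within minutes of a stimulus, split into those higher and those lower at 24 h. Of 29 tested 16 rose and 7 fell. Atf3, a stress-induced transcription factor, went from 8.50 and 8.64 in sham to 11.86 and 11.70 in PMCAO (3.21 ± 0.13, 9.27-fold). Maff rose by 3.16 ± 0.11, Fosl1 by 2.06 ± 0.18, Zfp36, which destabilises cytokine mRNA, by 1.82 ± 0.08 and Fos by 1.57 ± 0.20. Genes tied to neuronal activity were among the lower ones. Egr1 had levels of 14.44 and 14.48 in sham and 13.90 and 13.76 in PMCAO (-0.63 ± 0.11), Egr2 was at -0.64 ± 0.09, the synaptic gene Arc at -0.52 ± 0.08, the scaffold gene Homer1 at -0.67 ± 0.09 and the orphan receptor Nr4a2 at -1.06 ± 0.12. Neuropeptide and trophic factor genes counted 2 higher and 4 lower of 20. Hbegf, a ligand of the EGF receptor, rose by 1.15 ± 0.09, the neuronal pentraxin Nptx2 by 0.79 ± 0.10, and Bdnf, a neurotrophin induced by activity, fell by 0.40.

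The 24 h ratio of several of these genes stood below their 6 h ratio in the test of the difference, in which 246 genes were above (1.29%) and 57 below (0.298%) over all genes. The number of genes below depended on the setting. It was 78 with the mean of all probes of a gene, 72 with no filter on dim probes and 54 with an offset of 16. With all 4 channels of 24 h required above background it was 35. With the sample number, which is dye orientation, fitted as a block it was 1530. Processed signals gave 8 genes below and the deposited series values 7, with 2 of the 57 among each. Without sample 1 of 6 h 14 were below and without sample 2 of 6 h 18, with 10 of the 57 among each, and median centring gave 0 by limma (4 at p under 0.05 before adjustment). Npas4, which is induced by calcium entry into neurons, was at 2.60 at 6 h and 0.40 at 24 h, a difference of -2.20 (adjusted p = 0.0342). Egr4 differed by -1.89, Bdnf by -1.35, Fosb by -1.15, Egr3 by -1.03 and Egr1 by -1.0. Egr4, Bdnf and Egr1 had positive ratios at 6 h (1.33, 0.95 and 0.37) and stood below sham at 24 h. The 6 h ratio of Egr1 did not pass limma's test (adjusted p = 0.332). Fos and Atf3 gave differences of -0.26 and 0.56 that did not pass. Ier3 and Myc, by contrast, were above their 6 h ratio, by 1.23 and 1.00. Each time has its own sham RNA, so a difference can come from either arm.

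**Figure D4:**
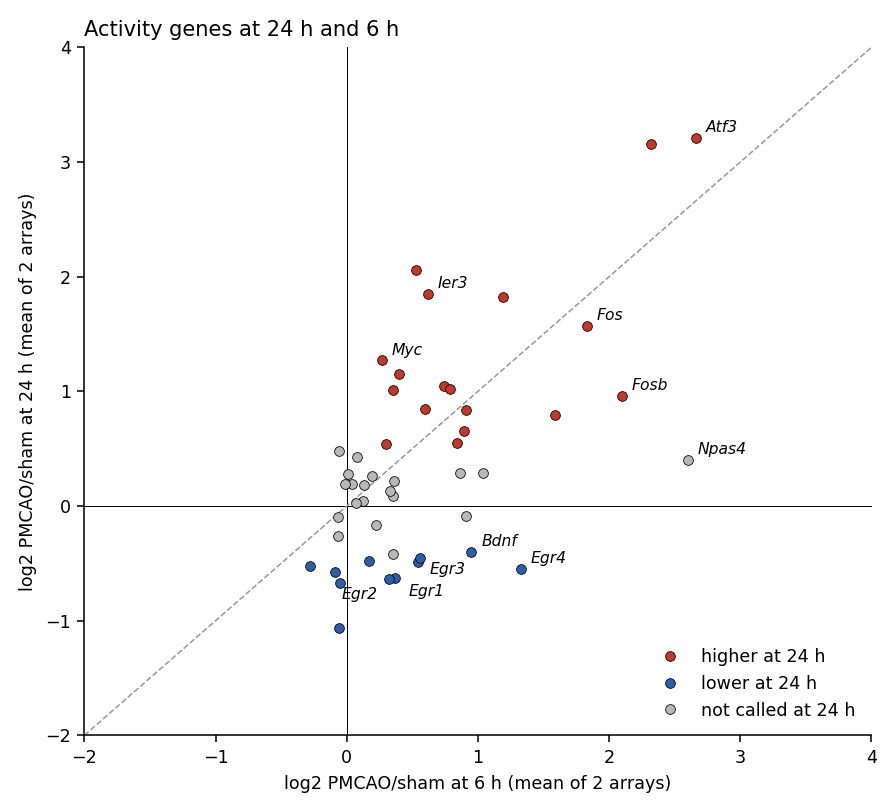
Log2 PMCAO over sham at 6 h (horizontal axis) and at 24 h (vertical axis) of the immediate early, neuropeptide and trophic factor genes, each the mean of 2 arrays, coloured by the 24 h test, with equal ratios on the dashed line and names beside genes given in the text. Npas4, Egr4, Bdnf and Fosb lie below the line and Ier3 and Myc above it, while Atf3 and Fos lie near it.

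Stress responses differed in how many of their genes moved. Glucocorticoid response genes counted 15 higher and none lower of 19 (median 1.41). Angptl4, an inhibitor of lipoprotein lipase, went from 10.89 and 11.15 in sham to 13.98 and 13.79 in PMCAO (2.86 ± 0.14, 7.27-fold), and the kinase gene Map3k6 rose by 1.91 ± 0.10. Sgk1 and Fkbp5, classic targets of the receptor, rose by 1.65 ± 0.08 and 1.31 ± 0.18, while Tsc22d3 at 0.48 ± 0.16 and Per1 at 0.56 ± 0.34 did not pass. Some members, such as Lcn2 (2.96 ± 0.10) and Cdkn1a (2.51 ± 0.08), are also induced by inflammation or p53. Of 25 p53 and apoptosis genes 12 rose, among them Gadd45b at 1.98 ± 0.09 and the BH3 protein gene Pmaip1 at 1.43 ± 0.09, and the survival gene Bcl2 fell (-0.80 ± 0.10). Cell death genes counted 11 higher and none lower of 21, with Casp4 at 1.65 ± 0.09, and the necroptosis genes Ripk3 at 1.21 ± 0.10 and Mlkl at 0.79 ± 0.08.

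Of 30 hypoxia and glycolysis genes 8 rose and none fell. The lactate exporter Slc16a3 rose by 1.80 ± 0.09, Ddit4 by 1.29 ± 0.09 and hexokinase Hk2 by 0.98 ± 0.12, while Ldha was at 0.35 ± 0.28 and Pgk1 at 0.24 ± 0.13, neither past the test. Oxidative stress genes and metallothioneins counted 9 higher and none lower of 24. Hmox1, which degrades haem, rose by 2.86 ± 0.08, the metal-binding genes Mt2 and Mt1 by 2.75 ± 0.32 and 1.81 ± 0.12, and Srxn1 by 0.87 ± 0.08. Of 28 genes of the integrated stress response and the endoplasmic reticulum 6 rose and none fell. The pseudokinase gene Trib3 rose by 1.22 ± 0.10, Sesn2 by 0.84 ± 0.10 and Ddit3 by 0.43 ± 0.10, while the chaperone Hspa5 was at -0.01 ± 0.09 and did not pass. Of 20 circadian clock genes Nfil3 (0.84 ± 0.14) and Nr1d1 (0.42 ± 0.09) rose and Rorb and Per2 (-0.79 ± 0.15) fell. Another probe above background gave -0.1 for Per2, -0.15 for Rorb and 0.05 for Nr1d1. The clock counts rest on 2 genes each way and are no result about that list. Heat shock genes counted 6 higher and 2 lower of 23. Hspa1a, whose near-identical copy Hspa1b may share the signal, had levels of 12.21 and 12.79 in sham and 15.86 and 15.91 in PMCAO (3.39 ± 0.15, 10.5-fold). The small heat shock protein Hspb1 rose by 2.24 ± 0.08 and the cochaperone Bag3 by 1.36 ± 0.11, while Hspb3 (-0.66 ± 0.08) and the chaperone Hspa4 (-0.63 ± 0.09) fell, the latter with probes between -0.63 and 0.45. The most abundant constitutive chaperone Hspa8 was at -0.35 ± 0.14 and did not pass. Both Hspa1a and Hspb1 hold the letters GAANNTTC, the core of the heat shock element, shown in capitals on the gene's strand, which 6.78% of all 27025 promoters hold on either strand within 250 bases upstream. Both genes were chosen because they rose and hold it. Of the 6 higher chaperones 2 hold the letters, as does 1 of the 2 lower ones.
Hspa1a (chr17:34972228-34972285): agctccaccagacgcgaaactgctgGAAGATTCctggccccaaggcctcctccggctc
Hspb1 (chr5:135887797-135887854): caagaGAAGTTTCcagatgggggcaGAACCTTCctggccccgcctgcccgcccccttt

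Lipid genes rose in separate branches. Of 24 cholesterol synthesis genes 11 rose and none fell (median 0.38). The sterol carrier Stard4 went from 10.64 and 11.10 in sham to 11.78 and 11.73 in PMCAO (0.89 ± 0.18), and lanosterol synthase Lss rose by 0.67 ± 0.08 and squalene synthase Fdft1 by 0.65 ± 0.11. Of 26 efflux and lipid droplet genes 8 rose and none fell. Ch25h, which makes 25-hydroxycholesterol, had levels of 8.38 and 8.26 in sham and 11.64 and 11.53 in PMCAO (3.27 ± 0.09, 9.63-fold), and the droplet coat genes Plin4 and Plin2 rose by 2.70 ± 0.09 and 2.01 ± 0.08. The cholesterol exporters Abca1 and Abcg1 were at 0.29 ± 0.17 and -0.26 ± 0.11, and neither passed. Of 23 prostaglandin and leukotriene genes 7 rose and 1 fell. Ptgs2 (cyclooxygenase 2) rose by 1.43 ± 0.14 and the prostaglandin E synthase Ptges by 1.86 ± 0.09, the leukotriene genes Alox5 and Alox5ap by 0.98 ± 0.11 and 1.06 ± 0.09, and Ltc4s, a leukotriene synthase of microglia, fell (-0.50 ± 0.09).

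Most cytoskeletal genes rose. Of 35 tested 20 rose and 1 fell (median 0.74). Tubb6, a beta-tubulin isotype of non-neuronal cells, went from 9.77 and 9.83 in sham to 13.51 and 13.30 in PMCAO (3.60 ± 0.10, 12.2-fold), Tuba1c rose by 2.74 ± 0.16, filamin Flnc by 2.59 ± 0.09 and vimentin (Vim) by 1.39 ± 0.10. Myl9 was the member that fell. A second Tubb6 probe above background gave -0.07 where the brighter probe gave 3.60, and the probes of Flnc ranged from 0.42 to 2.59. Among genes named before, the lowest probe above background gave 0.57 for Osmr, 0.11 for Csf2rb, 0.78 for Adamts9 and 0.47 for Thbs1. It gave 0.3 for Plat, 0.46 for Cd86, 0.38 for Trib3, 0.57 for Bag3 and 0.46 for Myc. For Abcc9 that probe gave 0.1, for Fdft1 0.17 and for Sesn2 0.29. Of 23 axon injury and regeneration genes 6 rose and the axon repellent Sema3a fell (-0.71 ± 0.15). The members that rose, Tubb6, Atf3, Hmox1, Tuba1c, Plaur and Gadd45a (0.79 ± 0.09), are also made by glia or leukocytes, and Sprr1a, a growth-associated gene of injured neurons, was at 0.21 ± 0.08 and did not pass.

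Oligodendrocyte genes fell in a few members. Of 28 myelin and mature oligodendrocyte genes 4 fell and 2 rose. Ugt8a, the enzyme that makes galactocerebroside for myelin, had levels of 10.82 and 10.82 in sham and 9.59 and 9.61 in PMCAO and was 2.33-fold lower (-1.22 ± 0.08, adjusted p = 0.000987). Carbonic anhydrase Car2 was at -0.72 ± 0.11 and aspartoacylase (Aspa) at -0.61 ± 0.10. Apod, a lipid carrier of glia, rose by 1.03 ± 0.11. The structural myelin gene Mbp, at 0.46 ± 0.25, did not pass. Of 22 precursor genes 4 fell and none rose. Gpr17, a receptor of cells about to mature, went from 13.66 and 13.58 to 12.84 and 12.60 (-0.90 ± 0.09), and Pdgfra, the growth factor receptor that defines precursors, was at 0.05 ± 0.15 and did not pass.

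In growth and patterning pathways single genes passed the test. Of 34 TGF-beta, BMP and activin genes 11 rose and 1 fell: the stress hormone gene Gdf15 rose by 1.70 ± 0.09, Bmp7 by 1.20 ± 0.08 and Tgfb1 by 0.76 ± 0.09, and Id4 fell (-0.49 ± 0.08). EGF family and growth factor genes counted 3 higher and 2 lower of 27, with the binding protein Igfbp3 at 1.92 ± 0.08 (0.46 by its other probe) and the receptor Fgfr2 at -0.58 ± 0.11, where another probe above background reached 0.30. Wnt pathway genes counted 3 higher and 4 lower of 36, among them Wnt10a at 0.69 ± 0.09 and Wnt2 at -0.65 ± 0.12. MAP kinase phosphatases and Ras feedback genes counted 2 higher and 2 lower of 21, with Dusp1 at 0.77 ± 0.12 and Dusp6, a feedback gene of ERK signalling, at -0.52 ± 0.10. Of 29 cell cycle genes Hmgb2 (1.48 ± 0.14) and Bub1b (0.56 ± 0.09) rose and Ccnd2 (-0.38 ± 0.08) fell, while Mki67, a marker of dividing cells, was at -0.11 ± 0.11 and did not pass. Against 7.84% higher and 4.52% lower over all genes, the shares were 11.1% and 7.41% in the EGF family, 8.33% and 11.1% in the Wnt pathway, 9.52% and 9.52% in the phosphatases and 6.9% and 3.45% in the cell cycle list. Each rests on 1 to 4 genes, so the counts are no result about these lists.

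The listed genes of respiration, translation and protein breakdown did not pass the test at 24 h. None of 41 respiratory chain genes (0 up and 1 down at p under 0.05 before adjustment), 51 cytosolic ribosomal protein genes (19 and 0) or 32 proteasome genes (3 and 0) passed limma's test in either direction. Their medians were -0.05, 0.23 and 0.12. With median centring these were -0.23, 0.05 and -0.06. Without sample 1 of 24 h 2 higher and 6 lower respiratory, 9 higher and 3 lower ribosomal and 4 higher proteasome genes passed, and without sample 2 there were 3 higher respiratory and 19 higher ribosomal genes. In such a fit the 1 array left is assumed to vary like the 6 h arrays. With all arrays and the sample number, which is dye orientation, fitted as a block, 39 higher ribosomal, 5 higher proteasome and 2 lower respiratory genes passed. The ribosomal genes ranged from Rpl14 at -0.13 to Rpl4 at 0.42.

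**Figure D5:**
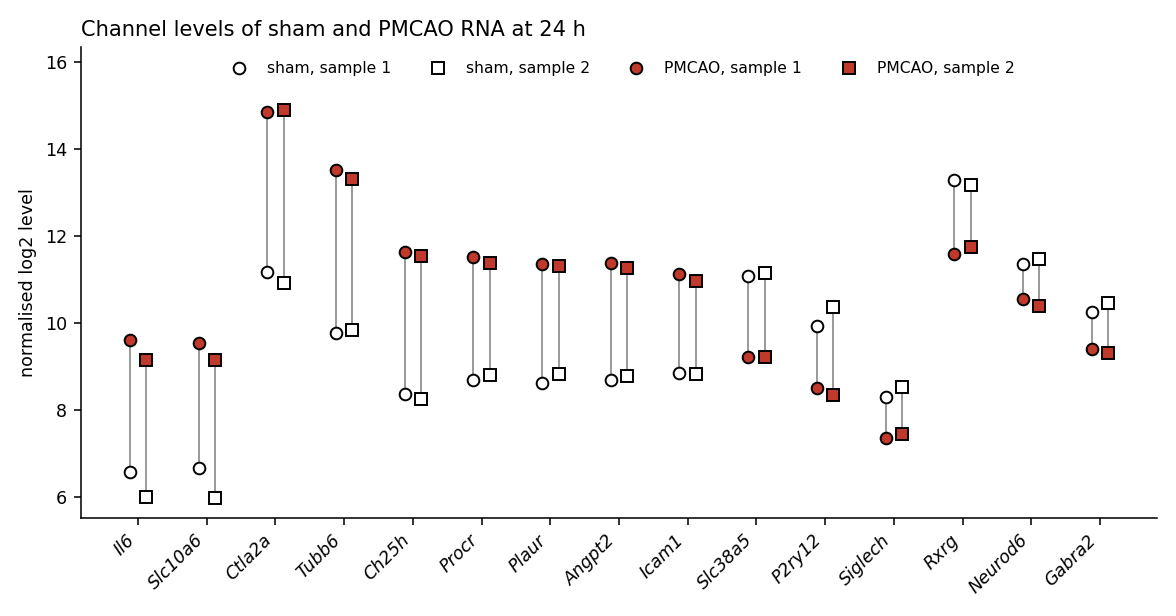
Normalised log2 channel level (vertical axis) of 15 genes at 24 h, with sham as open and PMCAO as red symbols, sample 1 as circles and sample 2 as squares, and a line joining the 2 RNAs of 1 array. In every gene shown the 2 PMCAO levels lie on the same side of both sham levels, above for Il6 to Icam1 and below for Slc38a5 to Gabra2.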

How the data were processed

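Each array held PMCAO RNA in one dye and sham RNA in the other, and only the 2 arrays of 24 h enter the values above, beside the 6 h arrays that share the estimate of the spread. Per the file headers, the authors' scanner software, Agilent Feature Extraction 9.5.3.1, wrote intensity values of each spot: the mean signal, the median of the local background and a background-subtracted, dye-normalised processed signal per dye. It also wrote their log10 ratio, red over green, per the file headers. The authors deposited 1 further score per probe and array for the whole series, and its size was within 0.0051 of the linear ratio of processed signals (red over green) for 100% of probes, with column medians of -0.96, 0.97, -0.92 and 0.96. The sign was negative on every sample 1 and positive on every sample 2, and its meaning stays unknown. The authors' processed signals were used only as an alternative and for the size of this score, and the log10 ratio was not used.

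Normexp background correction with an offset of 50 and loess normalisation within each array were run in limma 3.58.1 (R 4.3.3) on the mean signals, with control spots at weight 0 and outlier-flagged spots (138 and 112 on the 24 h arrays) removed. Ratios were turned to PMCAO over sham, replicate spots were averaged and a gene was represented by its brightest probe. RefSeq names of assembly GRCm38.p6 were found for 22951 of 41174 probes by accession, for 6659 by symbol and for 3109 by a former symbol, and 8455 stayed as named in the files, whose probe coordinates are mm7. Genes well above background on both arrays of 1 RNA group were tested by a linear model of the 4 arrays with 1 mean per time (2 residual and 3.53 prior degrees of freedom) and Benjamini-Hochberg adjustment at 0.05, checked on simulated arrays. Channel levels were made comparable between arrays with Aquantile. Promoters were matched by symbol for 12127 tested genes. Genes named are the 30 highest and 30 lowest ratios that passed, the 6 largest changes and every opposite call in each list, 3 members of a list with none, and the 10 largest time differences each way; other names, given where they define a group, were chosen after their values were seen, clone identifiers were left out, and some genes are not reported here. The lists and the genes were chosen with earlier results of these data known. Plots used matplotlib 3.10.9.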

Additional observations from a re-analysis of the deposited data

Results flagged for a closer look

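Each gene named in the text whose 24 h ratio differed from its 6 h ratio in the moderated test of the difference (limma, adjusted p under 0.05) is given here with the 24 h minus 6 h difference of log2 ratios. Of 256 genes named 90 did so, 75 above and 15 below their 6 h ratio. Over all genes tested 246 were above (1.29%) and 57 below (0.298%). Many named genes were chosen for large 24 h ratios or large time differences, so their count follows from that choice. Of the 246 genes above, 46 were also above from processed signals and 43 from the deposited series values. The 2 times have separate sham RNA. Among markers of neutrophils and monocytes the 24 h ratio was above by 3.35 for S100a8, 3.22 for S100a9, 2.55 for Clec4d, 2.08 for Arg1, 2.01 for Mmp8, 2.00 for Thbs1, 1.76 for Il1r2 and 1.19 for Cxcr2. Among inflammatory signals and their receptors the 24 h ratio was above by 3.19 for Il11, 3.03 for Saa3, 2.69 for Cxcl1, 2.64 for Cxcl3, 2.62 for Il6, 2.08 for Il1rn, 1.72 for Csf3, 1.72 for Hp, 1.64 for Bcl3, 1.49 for Tlr2, 1.14 for Csf2rb, 1.11 for Cd86, 1.04 for Ifitm3, 1.01 for Tnfrsf1b, 0.94 for Il4ra, 0.86 for Myd88 and 0.86 for Rsad2. Among reactive astrocyte markers the 24 h ratio was above by 3.08 for Tgm1, 2.31 for Cxcl10, 2.04 for Slc10a6, 1.91 for Timp1, 1.72 for Lcn2, 1.33 for Cd14, 1.06 for Osmr, 1.05 for Vim, 1.03 for Cp and 1.00 for Hspb1. Among genes of phagocytes and microglia the 24 h ratio was above by 2.71 for Lgals3, 2.47 for Spp1, 2.00 for Msr1, 1.47 for Cd300lf and 1.47 for Capg. For matrix and coagulation genes the 24 h ratio was above by 2.34 for Adam8, 1.81 for Procr, 1.38 for Anxa2, 1.24 for Lox, 1.19 for Col5a3, 1.09 for Adamts9 and 0.97 for Dcn. For genes of endothelium and sprouting the 24 h ratio was above by 1.56 for Esm1, 1.56 for Angpt2, 1.36 for Icam1 and 0.91 for Selp. In the stress lists the 24 h ratio was above by 2.12 for Plin4, 1.67 for Adm, 1.47 for Sgk1, 1.27 for Mt1, 1.17 for Ripk3, 0.99 for Slc16a3 and 0.81 for Mlkl. In the lipid lists the 24 h ratio was above by 2.06 for Ch25h, 1.75 for Plin2, 1.33 for Ptges, 1.02 for Alox5 and 0.92 for Alox5ap. In the growth and cytoskeletal lists the 24 h ratio was above by 1.69 for Flnc, 1.55 for Igfbp3, 1.34 for Gdf15 and 0.90 for Bmp7. In the activity and axon injury lists the 24 h ratio was above by 1.65 for Hmox1, 1.25 for Tubb6, 1.23 for Ier3 and 1.00 for Myc. Outside the lists the 24 h ratio was above by 2.85 for Slpi, 1.86 for Ctla2a, 1.75 for Ctla2b and 1.03 for Tmem252. Below their 6 h ratio stood Npas4 with a difference of -2.20, Egr4 with -1.89, Khdrbs3 with -1.42, Bdnf with -1.35, Fosb with -1.15, Ugt8a with -1.15, Egr3 with -1.03, Rxrg with -1.03, Slc2a5 with -1.0, Egr1 with -1.0, Dusp6 with -0.98, Hspb3 with -0.96, Egr2 with -0.95, Siglech with -0.92 and Camkk2 with -0.82. For Csf3, Cxcl3, Cxcr2, Il1rn, Il6, Mmp8 and Slc10a6 sham was not well above background on either 24 h array, so these differences rest on dim signals and their size is uncertain. With 2 arrays a group, no array could be checked as an outlier within its group.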

How the results depend on the processing

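Under every alternative but the mean of all probes of a gene, which turned 3, the genes called at 24 h and still tested kept their sign. Only the other scalings, the offset of 16, the outlier spots kept and the mean of probes could turn a sign. The remaining settings leave the 24 h mean unchanged or keep an array on which every called gene had that sign. For them the outcome was fixed in advance. Median centring gave 13 higher and 0 lower genes, 13 and 0 at least 2-fold, and 0 above and 0 below their 6 h ratio by limma (at an unadjusted p under 0.05, 283 higher, 18 lower, 61 above and 4 below). The scanner's processed signals gave 1243 higher and 1163 lower genes, 616 and 284 at least 2-fold, and 54 above and 8 below their 6 h ratio, and the values deposited by the authors for the series 1235 higher and 1156 lower genes, 618 and 288 at least 2-fold, and 51 above and 7 below their 6 h ratio. For these scalings the cause was not tested. Sample number is dye orientation here, so a replicate block removes each gene's dye effect; deviations from the time means correlated at 0.718 between arrays of 1 number, with only 2 such pairs. With the replicate block there were 3913 higher and 3683 lower genes, 390 and 25 at least 2-fold, and 1685 above and 1530 below their 6 h ratio. From the 24 h arrays alone there were 1235 higher and 602 lower genes; an offset of 16 gave 50 at least 2-fold lower; and the other 4 settings, outlier spots kept, mean of probes, no filter and a filter on all 4 channels of 24 h, gave between 1336 and 1522 higher, and below the 6 h ratio between 35 and 78. Leaving out 1 array in turn, which leaves 1 dye orientation at that time and takes the spread from the other time, so that the lone array is assumed to vary like those, gave 1235 to 2920 higher, 602 to 2840 lower, 390 to 468 at least 2-fold higher, 25 to 61 at least 2-fold lower, 167 to 1564 above the 6 h ratio and 14 to 1350 below the 6 h ratio. Without sample 1 of 24 h the higher and lower counts were 2920 and 2840, and without sample 2 2491 and 1519; without either 6 h array they were 1235 and 602. Of 120 list counts, higher and lower for each list, 78 moved by over 1.5 times with median centring, 72 with the replicate block, 55 and 42 without sample 1 or 2 of 24 h, and 0 to 15 under each other setting. Lists with no call had calls with the block: 39 of 51 ribosomal genes higher, 5 of 32 proteasome genes higher, 2 of 41 respiratory genes lower, 8 of 20 pan-neuronal genes lower, and 1 lymphocyte marker higher and 1 lower. With dim genes kept in, the median of complement and acute phase genes was 0.42 and of red cell markers 0.24. Of 3571 values of the 256 named genes under the alternatives, 3200 kept their sign and call, 304 lost the call (214 of them with median centring), 42 gained one and 25 changed sign. In the deposited series values the sign turned for Grin1 (-0.04) and Pdgfra (-0.02). As the mean of all probes the sign turned for Tac1 (0.01) and Vcam1 (0.11). With median centring the sign turned for Gad1 (-0.09), Grin1 (-0.05), Pdgfra (-0.09) and Slc17a7 (-0.07). From processed signals the sign turned for Grin1 (-0.03) and Pdgfra (-0.02). With an array left out the ranges that crossed 0 were -0.02 to 0.61 for Abca1, -0.59 to 0.30 for Apoe, -0.09 to 0.28 for Gad1, -0.24 to 0.33 for Grin1, -0.13 to 0.28 for H2-Aa, -0.03 to 0.01 for H2-Eb1, -0.13 to 0.10 for Hspa5, -0.16 to 0.86 for Ldha, -0.29 to 0.07 for Mki67, -0.20 to 0.30 for Pdgfra, -0.14 to 1.25 for Per1, -0.63 to 1.29 for Ppp1r1b, -0.27 to 0.02 for Rpl14, -0.58 to 0.74 for Slc17a7 and -0.85 to 0.03 for Slc1a2, none of which had passed the test.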

Other observations

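Some of the largest changes lay in genes outside the lists. S100a5, a calcium-binding protein of the family that holds the neutrophil genes S100a8 and S100a9, had levels of 7.30 and 7.10 in sham and 10.35 and 9.98 in PMCAO, a log2 ratio of 2.97 ± 0.18 (7.82-fold, adjusted p = 0.000836). Among the lower genes Itm2a, a membrane protein of vessels and cartilage, went from 13.31 and 13.50 in sham to 12.31 and 12.25 in PMCAO (-1.13 ± 0.10). Camkk2, the kinase that activates calmodulin-dependent kinases and AMPK, went from 13.39 and 13.22 to 12.39 and 12.31 (-0.95 ± 0.08). Moxd1, a relative of dopamine beta-hydroxylase, was at -0.94 ± 0.10, and Sh3rf2, a scaffold of the JNK pathway, at -1.04 ± 0.09. Mycn, a transcription factor of growing cells, gave -0.78 and -1.56 on the arrays, a mean of -1.17 ± 0.23 with an adjusted p of 0.0332, the widest error of these genes. The other Mycn probe above background gave -0.22.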
